A study of Mus musculus with 9 samples.

Results

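Heme biosynthesis was followed through 9 genes chosen by name: the 5-aminolevulinate (ALA) synthases Alas1 and Alas2, the enzymes Alad, Uros, Urod, Cpox, Ppox and Fech, and the mitochondrial carrier Slc25a38. All 9 were listed among the 16537 genes of the expression table, as 10 of its 21388 transcripts, and all 9 passed the filter on low counts. Leukemic progenitors (LP) of the bone marrow carried more Alas1 RNA than normal hematopoietic progenitor cells (HPC) at both disease phases. Alad, Uros, Urod, Cpox, Ppox, Fech and Slc25a38 were all lower in LP at both phases. Alas2, the red cell ALA synthase, was higher than in HPC in median LP and lower than in HPC in early LP.

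Heme synthesis begins in the mitochondrion, where ALA synthase joins glycine and succinyl-CoA in the step that limits the rate of the pathway. The next steps take place in the cytosol, and the last ones return to the mitochondrion, where ferrochelatase inserts iron into protoporphyrin. Alas1 serves nearly all tissues and is held down by heme itself, whereas Alas2, on the X chromosome, serves red cell precursors and is switched on by the erythroid factor GATA1. In bone marrow, heme goes into hemoglobin in red cell precursors, and into myeloperoxidase and the cytochrome of the phagocyte oxidase in granulocyte and monocyte precursors.

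The 9 RNA libraries were made from cells sorted out of the bone marrow of FVB/NJ mice, an inbred strain, with 3 libraries in each of 3 groups. Median LP and early LP came from mice with the genotype PML-RAR, the oncogenic fusion of PML with the alpha receptor of retinoic acid, which marks acute promyelocytic leukemia, at the phases labelled median and early. HPC were taken from wild-type animals on postnatal day 42. The sources used here give neither the age of the LP mice in days, nor the promoter that drives the fusion, nor the markers of the sort, so leukemia, age and the mix of sorted cells cannot be told apart. Whether libraries of 1 group came from different animals is not labelled, so the p-values rest on the spread of these libraries alone, and that spread may be technical. In bulk RNA, fewer cells of a type and less RNA per cell cannot be told apart either.

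Depth was 20.6 to 28.4 M fragments (M, mega) per library. Levels are given as CPM, counts per 1 M counts after TMM scaling, and compare libraries for the same gene. FPKM, which also divides by the length of the transcript in kilobases, is used where genes are compared with each other. Summed markers of promyelocyte granules ranged over 30772 to 32972 CPM in median LP, 37253 to 42629 CPM in early LP and 13345 to 15060 CPM in HPC. Summed erythroid markers, 21 genes, ranged over 232 to 257 CPM in median LP, 246 to 257 CPM in early LP and 4981 to 5567 CPM in HPC. The part of this difference in cell markers in the results on heme genes was not tested.

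The promoters of the ALA synthases are shown because Alas1 and Alas2 parted in early LP. That of Cpox is shown because, of the 8 members with a promoter window here, Alas2 and Cpox had windows that hold AGATAA. This is 1 form of the GATA motif. Other forms were not searched, so windows of any member may hold them unmarked. The windows run from 250 bases before to 50 after the RefSeq start on GRCm38.p6, on the gene's strand. They lie at chr9:106247905-106248204 (minus strand) for Alas1, chrX:150547167-150547466 (plus strand) for Alas2 and chr16:58669958-58670257 (plus strand) for Cpox. Capitals mark AGATAA, the GATA motif, CACCC, bound by factors of the KLF family, and the palindromic motif of nuclear respiratory factor 1 (NRF1), whose 10 letters form the last run of capitals in the Alas1 line. Each motif was read on both strands.
Alas1: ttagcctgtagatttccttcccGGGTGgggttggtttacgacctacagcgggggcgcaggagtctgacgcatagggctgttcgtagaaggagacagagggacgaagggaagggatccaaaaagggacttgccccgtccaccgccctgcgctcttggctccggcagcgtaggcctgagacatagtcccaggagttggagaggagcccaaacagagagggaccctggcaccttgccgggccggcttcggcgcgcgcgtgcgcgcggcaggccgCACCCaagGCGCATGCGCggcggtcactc
Alas2: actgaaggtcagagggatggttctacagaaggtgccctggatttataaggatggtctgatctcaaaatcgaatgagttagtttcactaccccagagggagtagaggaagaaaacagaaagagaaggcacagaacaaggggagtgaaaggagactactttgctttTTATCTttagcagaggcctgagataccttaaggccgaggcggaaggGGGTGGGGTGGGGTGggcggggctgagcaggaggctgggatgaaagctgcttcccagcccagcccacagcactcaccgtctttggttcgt
Cpox: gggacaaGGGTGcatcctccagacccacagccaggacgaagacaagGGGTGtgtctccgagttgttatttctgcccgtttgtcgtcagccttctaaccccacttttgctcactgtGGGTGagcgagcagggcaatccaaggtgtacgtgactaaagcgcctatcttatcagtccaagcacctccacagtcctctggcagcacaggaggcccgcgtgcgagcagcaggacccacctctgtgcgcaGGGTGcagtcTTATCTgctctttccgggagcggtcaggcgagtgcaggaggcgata
In these windows the Alas1 promoter holds 1 NRF1 motif and 2 CACCC. The Alas2 promoter holds 1 AGATAA (as TTATCT) and 3 CACCC in a row (as GGGTG), and the Cpox promoter 1 AGATAA and 4 CACCC. Among all 32851 RefSeq promoter windows of the mouse, 11.2% hold AGATAA, 57.5% hold CACCC and 0.971% hold the NRF1 motif. RefSeq windows were matched for 8 members, 11 windows in all since some genes have more than 1 start. AGATAA was in 2 of the 11, CACCC in 7, from 6 genes, and the NRF1 motif in 2, both of Alas1 and overlapping each other. The matches describe these letters only, and binding was not measured.

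Alas1 (mm10, chromosome 9, 106233455 to 106247954), the ALA synthase of most tissues, had 837, 799 and 729 CPM in median LP 1 to 3, 794, 848 and 800 CPM in early LP 1 to 3, and 511, 426 and 407 CPM in HPC 1 to 3. Every LP library lay above every HPC library, and the LP groups overlapped each other. Alas1 was 1.76-fold higher in median LP than in HPC (log2 change 0.82, SE 0.09, edgeR adjusted p = 6.11e-06) and 1.82-fold higher in early LP (log2 change 0.86, SE 0.09, adjusted p = 3.84e-06). The change in median against early LP was not called (log2 change -0.05, 95% interval -0.24 to 0.15, adjusted p = 0.833). An antisense gene, 4930500F10Rik, overlaps 465 bases of Alas1 exons in GENCODE M21, and the sources used here do not say whether the counting used strand.

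Alas2 (chromosome X, 150547417 to 150570622), the red cell ALA synthase, was scarce everywhere. Its level was 4.97, 6.92 and 5.68 CPM in median LP 1 to 3, 0.205, 0.218 and 0.154 CPM in early LP 1 to 3, and 2.08, 1.36 and 2.11 CPM in HPC 1 to 3. Median LP was the highest group and early LP the lowest, and no library of any group overlapped with another group. Alas2 was 3.15-fold higher in median LP than in HPC (log2 change 1.66, SE 0.20, adjusted p = 1.42e-05). In early LP it fell by 3.19 on the log2 scale against HPC (SE 0.33, adjusted p = 3.43e-06), a 9.15-fold difference. Between the phases it was 28.8-fold higher in median than in early LP (log2 change 4.85, SE 0.29, adjusted p = 7.95e-06). The counts behind these values are small. Recovered fragments numbered 129, 159 and 141 in median LP 1 to 3, 4, 6 and 3 in early LP 1 to 3, and 53, 34 and 60 in HPC 1 to 3. Summed over each group, Alas2 had 5.69 fragments per 1 M in median LP (exact 95% interval 5.17 to 6.26), 0.186 in early LP (0.0990 to 0.318) and 2.0 in HPC (1.69 to 2.35), and these intervals cover counting error only. Exons of Apex2 on the opposite strand overlap 311 bases of Alas2. The table lists Alas2 transcripts NM_009653 and NM_001102446, whose levels are too low to be split reliably.

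**Figure D1:**
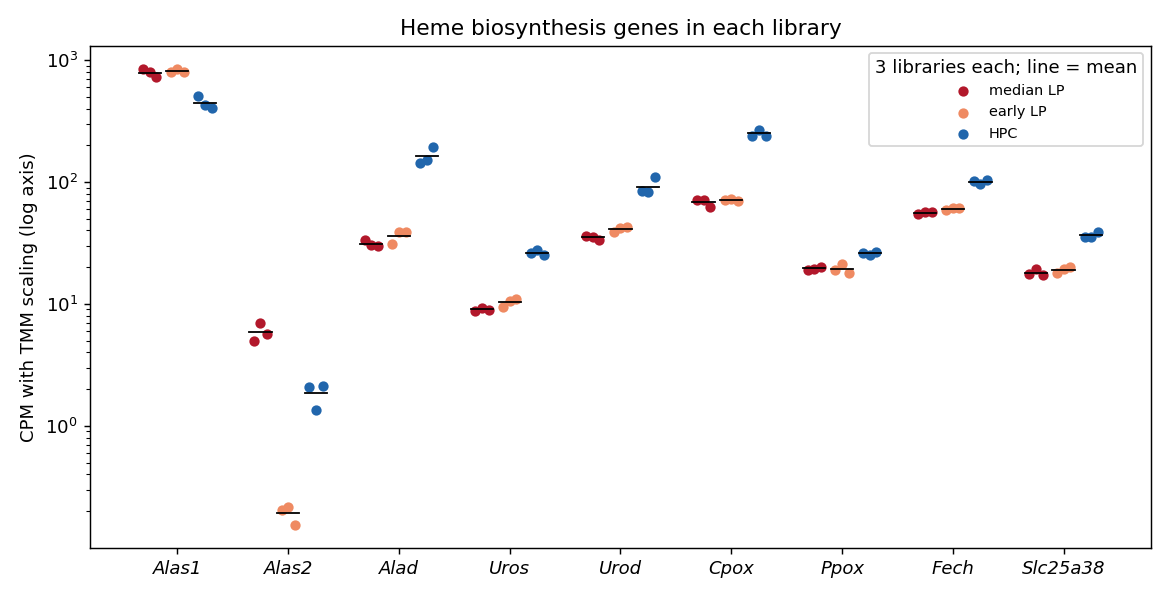
Level of each of the 9 heme biosynthesis genes in CPM with TMM scaling (vertical axis, log scale) in median LP, early LP and HPC; points are libraries and lines are group means of 3 libraries. Alas1 lies higher in both LP groups, Alas2 is highest in median LP and lowest in early LP, and the other 7 genes lie lower in both LP groups than in HPC.

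The cytosolic enzymes were lower in LP. Alad (chromosome 4, 62509170 to 62520063), the dehydratase that joins ALA molecules to porphobilinogen, had 33.1, 30.5 and 29.7 CPM in median LP 1 to 3, 31.2, 39.0 and 38.6 CPM in early LP 1 to 3, and 142, 152 and 193 CPM in HPC 1 to 3. HPC lay above both LP groups in every library, with HPC 3 the highest. Alad fell by 2.39 on the log2 scale in median LP (SE 0.12, adjusted p = 5.68e-09) and fell by 2.17 in early LP (SE 0.12, adjusted p = 1.28e-08) against HPC. These were the largest decreases among the members in median LP, and in early LP the largest after that of Alas2.

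Uros (chromosome 7, 133686330 to 133709295), the synthase that closes the ring to uroporphyrinogen III, had 8.83, 9.30 and 8.98 CPM in median LP 1 to 3, 9.44, 10.6 and 10.9 CPM in early LP 1 to 3, and 25.9, 27.5 and 25.4 CPM in HPC 1 to 3. The 3 groups did not overlap, with median LP the lowest and HPC the highest. Uros fell by 1.54 on the log2 scale in median LP (SE 0.09, adjusted p = 1.5e-08) and fell by 1.35 in early LP (SE 0.09, adjusted p = 4.55e-08) against HPC. Urod (chromosome 4, 116990217 to 116994375), which removes carboxyl groups to give coproporphyrinogen, had 36.1, 35.6 and 33.6 CPM in median LP 1 to 3, 38.6, 41.6 and 42.5 CPM in early LP 1 to 3, and 83.6, 82.6 and 109 CPM in HPC 1 to 3. Its groups were ordered in the same way without overlap, and HPC 3 was again the highest. Urod fell by 1.39 on the log2 scale in median LP (SE 0.10, adjusted p = 1.47e-07) and fell by 1.17 in early LP (SE 0.10, adjusted p = 6.53e-07). Alad and Urod have the shortest transcripts of the members, 1350 and 1199 bases. Short transcripts were higher in HPC 3 than in the other HPC libraries (log2 change of -0.196 per doubling of length). Each library was set against the others of its group, so the values of HPC 1 (0.0872) and HPC 2 (0.109) are not independent of that of HPC 3. The part of length in the Alad and Urod levels was not tested. The libraries were also split by the sign of their length trend, a length split chosen after the data had been seen. With that split as a block, Alad fell by 2.38 in median LP and fell by 2.26 in early LP. Urod fell by 1.38 in median LP and fell by 1.23 in early LP. The block holds only the sign of each trend, so it cannot remove a graded effect of length.

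The mitochondrial enzymes of the last steps, Cpox, Ppox and Fech, were lower in LP as well, by amounts that differed between them. Cpox (chromosome 16, 58670208 to 58680389), coproporphyrinogen oxidase, had 70.7, 71.1 and 62.4 CPM in median LP 1 to 3, 71.7, 71.8 and 70.2 CPM in early LP 1 to 3, and 240, 269 and 240 CPM in HPC 1 to 3. All HPC libraries were far above all LP libraries, and the LP groups overlapped. Cpox fell by 1.88 on the log2 scale in median LP (SE 0.08, adjusted p = 6.55e-10) and fell by 1.81 in early LP (SE 0.08, adjusted p = 9.37e-10), the smallest adjusted p of the members in both. Exons of Gpr15 on the opposite strand overlap 204 bases of Cpox.

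Ppox (chromosome 1, 171276992 to 171281186), protoporphyrinogen oxidase, had 18.9, 19.4 and 20.2 CPM in median LP 1 to 3, 19.1, 21.2 and 18.0 CPM in early LP 1 to 3, and 26.4, 25.4 and 26.8 CPM in HPC 1 to 3. HPC was above LP without overlap, yet Ppox had the smallest decrease of the members. It fell by 0.42 on the log2 scale in median LP (SE 0.08, adjusted p = 0.00048) and fell by 0.43 in early LP (SE 0.08, adjusted p = 0.000422). Exons of B4galt3 on the opposite strand overlap 791 bases of Ppox, the longest overlap of any member, so this value is uncertain if strand was not used.

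Fech (chromosome 18), ferrochelatase, the enzyme of the last step, had 54.2, 57.2 and 57.1 CPM in median LP 1 to 3, 58.4, 61.4 and 60.6 CPM in early LP 1 to 3, and 101, 96.3 and 103 CPM in HPC 1 to 3. The groups did not overlap, with median LP just below early LP. Fech fell by 0.84 on the log2 scale in median LP (SE 0.06, adjusted p = 8.52e-08) and fell by 0.74 in early LP (SE 0.06, adjusted p = 2.66e-07). Slc25a38 (chromosome 9, 120110399 to 120124319), the mitochondrial glycine carrier that supplies ALA synthase, had 17.7, 19.3 and 17.2 CPM in median LP 1 to 3, 18.0, 19.2 and 19.9 CPM in early LP 1 to 3, and 35.4, 35.3 and 38.9 CPM in HPC 1 to 3. Both LP groups overlapped each other and lay below HPC. Slc25a38 fell by 1.02 on the log2 scale in median LP (SE 0.08, adjusted p = 2.72e-07) and fell by 0.94 in early LP (SE 0.08, adjusted p = 5.34e-07).

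In median LP against HPC, 2 members were called higher (Alas1 and Alas2) and 7 lower, where edgeR called 36.0% of the 12837 genes tested higher and 37.7% of them lower. In early LP against HPC, 1 member was called higher (Alas1) and 8 lower, where 35.3% of genes were called higher and 37.9% were called lower. With 73.8% of genes called in median LP and 73.2% in early LP, a call by itself sets no member apart. The median log2 change of the members was -1.02 in median LP and -1.17 in early LP, beside -0.0359 and -0.0378 over all genes tested. All 9 members had groups that did not overlap in both comparisons, as had 75.7% of genes for median LP and 74.8% for early LP. Both comparisons share the HPC libraries.

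Between the phases, 1 member (Alas2) was called higher in median than in early LP and 0 lower, where 1.48% of genes were called higher, 0.997% lower and 2.48% in either direction by edgeR. In the same fit 0 members were lower at an unadjusted p under 0.05, with Urod (edgeR unadjusted p = 0.0554) and Uros (0.0576) just above it. DESeq2 called 0 lower. Over the 20 alternative fits the lowest adjusted p of Urod between the phases was 0.0531, so its decrease depends on the fit. The changes that were not called had intervals of limited width: -0.22 for Alad (95% interval -0.49 to 0.04), -0.22 for Urod (-0.44 to 0.01), -0.19 for Uros (-0.39 to 0.01), -0.10 for Fech (-0.23 to 0.03), -0.08 for Slc25a38 (-0.26 to 0.10), -0.07 for Cpox (-0.23 to 0.10) and 0.01 for Ppox (-0.17 to 0.19). Of these genes, Uros, Urod and Fech had every median LP library below every early LP library. With Alas2, 4 of the 9 members did not overlap between the phases, where 26.3% of all genes tested did not.

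**Figure D2:**
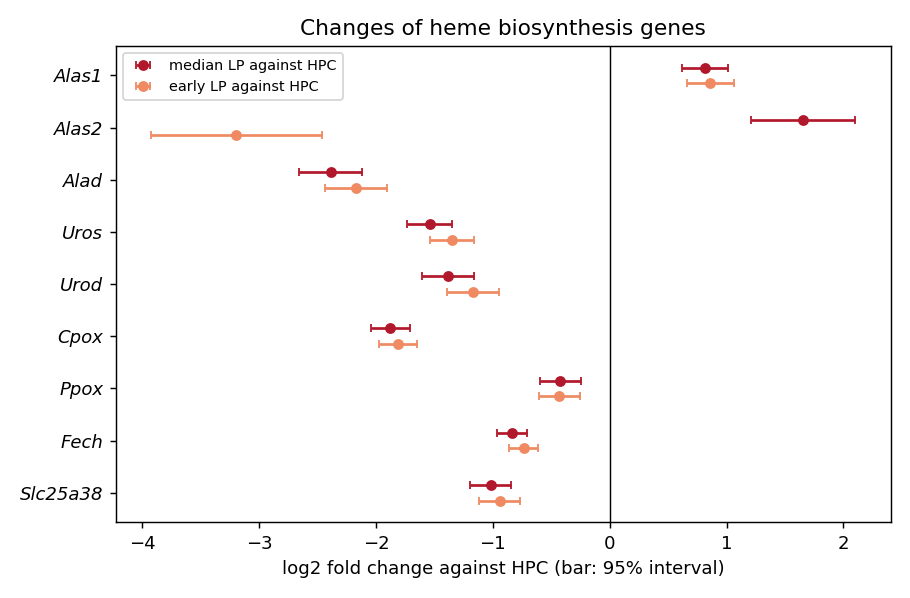
Log2 fold change against HPC (horizontal axis) of the 9 genes (rows) in median LP and in early LP; bars are 95% intervals from edgeR and the vertical line marks no change. The points of both phases lie close together for every gene but Alas2, which stands at 1.66 in median LP and at -3.19 in early LP.

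Per length, Alas1 was the most abundant member in every group. In median LP the mean FPKM fell in the order Alas1 (256), Urod (31.0), Alad (24.2), Cpox (19.1), Fech (16.4), Slc25a38 (12.1), Ppox (10.3), Uros (4.37) and Alas2 (2.49). Early LP had the same order, with Alas1 at 266 FPKM, Urod at 36.6, Alad at 28.3, Cpox at 20.6, Fech at 18.0, Slc25a38 at 12.9, Ppox at 10.4, Uros at 5.08 and Alas2 at 0.0841. No neighbours in either order overlapped between libraries. HPC had Alas1 at 150 FPKM, Alad at 131, Urod at 84.2, Cpox at 76.0, Fech at 30.9, Slc25a38 at 25.5, Ppox at 14.6, Uros at 13.4 and Alas2 at 0.823. There Alad overlapped Alas1 and Cpox overlapped Urod, so these neighbours did not differ beyond their spread.

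Alas1 made up 68.0% ± 0.941 of the summed FPKM of all 9 members in median LP, 66.9% ± 0.703 in early LP and 28.6% ± 3.75 in HPC (SD, n = 3 each). The 7 members other than the ALA synthases summed to 118 ± 7.31 FPKM in median LP, 132 ± 9.68 FPKM in early LP and 376 ± 39.0 FPKM in HPC. Alas1 had 10.6 times the FPKM of Alad in median LP, 9.51 times in early LP and 1.17 times in HPC. Both the higher Alas1 and the lower 7 others enter these shares, which were not tested.

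Of the ALA synthase RNA, Alas1 made up 99.0% ± 0.190 in median LP, 99.968% ± 0.00571 in early LP and 99.5% ± 0.130 in HPC by FPKM (SD, n = 3 each). The libraries of the groups did not overlap. The share was different by -0.428 percentage points in median LP minus HPC, by 0.514 points in early LP minus HPC, and by -0.942 points in median minus early LP. Each difference had p = 0.1 in a two-sided exact permutation test, the smallest that 3 against 3 libraries can give. In all 3 groups the RNA of the red cell enzyme was a small part of the ALA synthase RNA, also in HPC, where erythroid markers were highest.

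Alas2 was set beside other genes of red cells, since its level moved between the phases. Hba-a1, an alpha globin gene, had 137, 201 and 131 CPM in median LP 1 to 3, 2.87, 5.69 and 2.72 CPM in early LP 1 to 3, and 36.9, 19.4 and 22.7 CPM in HPC 1 to 3. Like Alas2, Hba-a1 was highest in median LP and lowest in early LP, with no overlap between groups. Its log2 change was 2.57 in median LP against HPC (SE 0.26, adjusted p = 2.89e-06), -2.81 in early LP against HPC (SE 0.32, adjusted p = 7.23e-06) and 5.38 in median against early LP (SE 0.32, adjusted p = 7.95e-06).

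Hbb-b2, a beta globin gene, had 29.8, 37.2 and 34.7 CPM in median LP 1 to 3, 0.645, 0.742 and 0.525 CPM in early LP 1 to 3, and 2.65, 0.844 and 1.66 CPM in HPC 1 to 3. The order of the groups was again median LP, HPC and early LP. Its log2 change was 4.31 in median LP against HPC (SE 0.24, adjusted p = 1.32e-08), -1.39 in early LP against HPC (SE 0.38, adjusted p = 0.00583) and 5.70 in median against early LP (SE 0.28, adjusted p = 1.75e-06). Alpha and beta globin copies are near-identical, so the split between copies is uncertain. Hba-a1 and Hba-a2 together had 168 to 225 CPM in median LP, 2.72 to 5.69 CPM in early LP and 19.4 to 41.7 CPM in HPC. The 3 globin genes tested, Hba-a1, Hba-a2 and Hbb-b2, had calls against HPC in opposite directions, higher in median LP and lower in early LP.

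Most erythroid markers were far lower than in HPC at both phases. Of 21 erythroid markers tested, 20 were called lower in median LP and 1, Slc4a1, higher. In early LP 20 were lower and the other, Slc4a1, was not called (log2 change -2.04, SE 0.87, adjusted p = 0.0518). Over all genes tested, 37.7% were called lower in median LP and 37.9% in early LP. The median log2 change of the markers was -7.36 in median LP and -7.43 in early LP, beside -0.0359 and -0.0378 over all genes tested. Klf1, the erythroid transcription factor, averaged 0.561 ± 0.136 CPM in median LP, 0.658 ± 0.0823 CPM in early LP and 129 ± 14.7 CPM in HPC (SD, n = 3 each). Car2, a carbonic anhydrase abundant in red cells, averaged 4.54 ± 0.309, 4.86 ± 0.660 and 941 ± 40.0 CPM in median LP, early LP and HPC, and neither gene was called between the phases (adjusted p = 0.763 for Klf1 and 0.713 for Car2). Ank1 and Add2, of the red cell membrane skeleton, stood at 0.761 ± 0.0591 and 0.301 ± 0.0797 CPM in median LP, 0.690 ± 0.160 and 0.292 ± 0.120 CPM in early LP, and 129 ± 12.1 and 66.6 ± 2.13 CPM in HPC.

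Between the phases, 4 erythroid markers were called higher in median LP (Slc4a1, Epb4.2 and Trim10 among them) and 1, Car1, lower. These are named after their values had been seen. Over all genes tested, 1.48% were called higher between the phases and 0.997% lower. Slc4a1, the band 3 anion exchanger of the mature red cell membrane, had 3.20, 5.74 and 5.52 CPM in median LP 1 to 3, 0.154, 0.326 and 0.154 CPM in early LP 1 to 3, and 2.24, 0.120 and 0.492 CPM in HPC 1 to 3. Median LP was above both other groups, and early LP and HPC overlapped. Its log2 change was 2.34 in median LP against HPC (SE 0.56, adjusted p = 0.00239) and 4.38 in median against early LP (SE 0.71, adjusted p = 0.00859). Car1, a carbonic anhydrase of erythroid progenitors, averaged 1.66 ± 0.278 CPM in median LP, 6.08 ± 1.38 CPM in early LP and 1577 ± 203 CPM in HPC. The part of the globin and Slc4a1 RNA of median LP in the Alas2 difference was not tested.

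**Figure D3:**
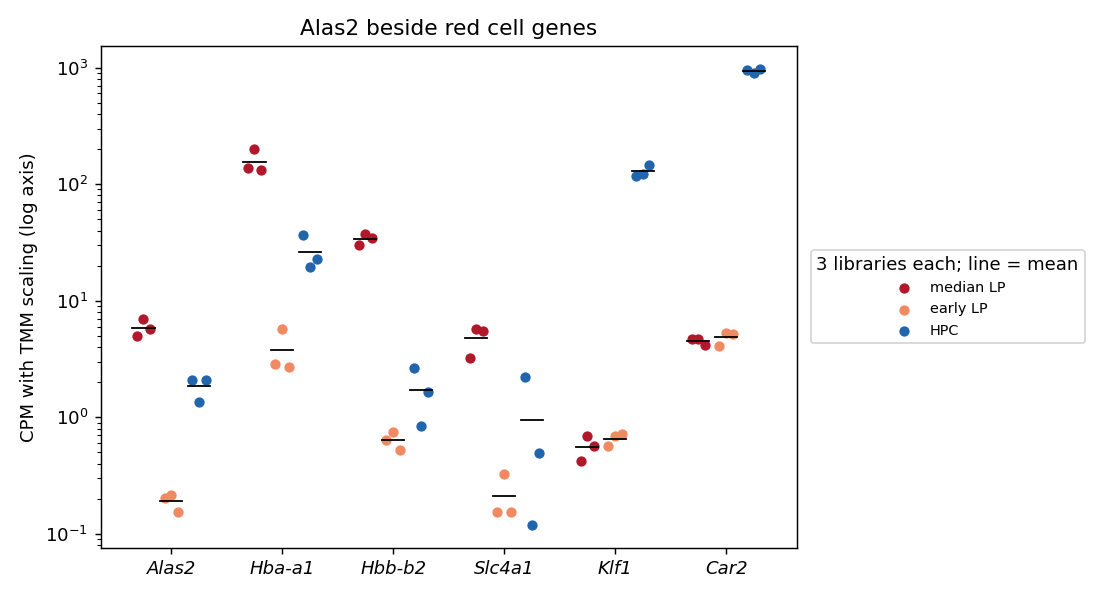
Alas2 beside globin genes (Hba-a1, Hbb-b2) and other red cell genes (Slc4a1, Klf1, Car2) in CPM with TMM scaling (vertical axis, log scale) in median LP, early LP and HPC; points are libraries and lines are means of 3. Alas2, Hba-a1, Hbb-b2 and Slc4a1 have their highest means in median LP, whereas Klf1 and Car2 are highest in HPC, Car2 at 941 CPM.

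The list of other heme synthesis genes holds further enzymes, transporters, cofactors and regulators, and 13 of its 14 genes were tested. In median LP 9 were called lower and 1 higher, and in early LP 10 were lower and 2 higher (Slc6a9 and Slc25a39). Over all genes tested, 37.7% were called lower and 36.0% higher in median LP, and 37.9% lower and 35.3% higher in early LP. The median log2 change of the list was -0.44 in median LP and -0.43 in early LP. Pgrmc1, a heme-binding membrane protein that interacts with ferrochelatase, averaged 43.0 ± 5.66, 45.0 ± 3.21 and 91.2 ± 14.5 CPM in median LP, early LP and HPC and was called lower at both phases. Slc6a9, the plasma membrane glycine transporter GlyT1, was higher, at 3.87 ± 0.570 CPM in median LP, 2.92 ± 0.503 CPM in early LP and 1.03 ± 0.0767 CPM in HPC. This glycine carrier of the cell surface and Slc25a38, that of the mitochondrion, had opposite signs against HPC.

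Of 13 genes of iron-sulfur cluster assembly, which shares the mitochondrial iron with heme synthesis and supplies the cluster that ferrochelatase carries, 12 were called lower in median LP and 11 in early LP. Over all genes tested, 37.7% were called lower in median LP and 37.9% in early LP. The median log2 change of these assembly genes was -0.87 in median LP and -0.81 in early LP. Isca1, an assembly protein, averaged 32.1 ± 1.94 CPM in median LP, 35.8 ± 1.13 CPM in early LP and 82.9 ± 7.51 CPM in HPC. Iba57 averaged 6.96 ± 0.755, 7.53 ± 1.16 and 27.9 ± 3.34 CPM in median LP, early LP and HPC. Nfs1, the cysteine desulfurase that provides sulfur, averaged 46.3 ± 3.69 CPM in median LP, 51.0 ± 2.64 CPM in early LP and 84.7 ± 8.42 CPM in HPC, and its partner Lyrm4 9.003 ± 0.863, 10.9 ± 0.399 and 22.7 ± 0.878 CPM in the same order of groups.

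Of 8 genes of heme uptake, export and breakdown tested, 3 were called higher and 3 lower at each phase, shares near those over all genes (36.0% higher and 37.7% lower in median LP, 35.3% higher and 37.9% lower in early LP). Slc48a1, the heme transporter of endosomes and lysosomes, averaged 360.5 ± 11.2 CPM in median LP, 387 ± 21.3 CPM in early LP and 127 ± 7.47 CPM in HPC, with log2 changes of 1.51 (SE 0.07) and 1.61 (SE 0.07). Lrp1, the receptor for heme bound to hemopexin, averaged 51.1 ± 16.7, 48.5 ± 2.30 and 15.7 ± 2.29 CPM in median LP, early LP and HPC. Hmox1, the inducible heme oxygenase, named after its values had been seen, averaged 12.7 ± 0.680 CPM in median LP, 12.3 ± 1.07 CPM in early LP and 4.65 ± 1.70 CPM in HPC and was called higher at both phases (adjusted p = 3.36e-05 and 4.53e-05). Blvrb, a biliverdin reductase that is also in the erythroid list, averaged 17.3 ± 0.677, 21.0 ± 3.09 and 106 ± 22.3 CPM, and Cd163, the scavenger receptor for hemoglobin with haptoglobin, 0.814 ± 0.185, 1.44 ± 0.185 and 4.54 ± 1.02 CPM in median LP, early LP and HPC. Both were called lower in LP.

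Of 14 genes that sense heme or regulate the ALA synthases, 4 were called higher and 6 lower at each phase, to be read against the same shares over all genes. Gata1, the factor that switches on Alas2, averaged 0.299 ± 0.0658 CPM in median LP, 0.768 ± 0.463 CPM in early LP and 117 ± 11.7 CPM in HPC. Its change between the phases was not called (log2 change -1.35, SE 0.47, edgeR unadjusted p = 0.0141, adjusted p = 0.171). Alas2 was called higher in median than in early LP, and the part of Gata1 in that difference was not tested. Zfpm1, the GATA1 cofactor FOG1, averaged 0.765 ± 0.134, 0.961 ± 0.488 and 172 ± 8.79 CPM, and Tal1 43.8 ± 2.39, 46.2 ± 1.06 and 191 ± 18.4 CPM in median LP, early LP and HPC. Ppargc1a and Nrf1, inducers of Alas1 in liver and other tissues, are named after their values had been seen. Ppargc1a averaged 1.02 ± 0.181 CPM in median LP, 1.33 ± 0.396 CPM in early LP and 0.103 ± 0.0279 CPM in HPC, higher at both phases, whereas Nrf1 was lower, at 47.3 ± 1.06, 47.9 ± 2.50 and 62.5 ± 1.99 CPM.

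Among 18 heme proteins and their partners tested, 7 were called higher and 8 lower in median LP, and 6 higher and 7 lower in early LP, to be read against those shares too. Mpo, myeloperoxidase, the heme enzyme of primary granules, averaged 16903 ± 613 CPM in median LP, 21887 ± 1720 CPM in early LP and 9094 ± 484 CPM in HPC. Its log2 change was 0.89 in median LP (SE 0.10, adjusted p = 4.93e-06) and 1.27 in early LP (SE 0.10, adjusted p = 2.37e-07). Cyba, the small subunit of the phagocyte cytochrome, averaged 267 ± 1.12 CPM in median LP, 288 ± 28.2 CPM in early LP and 68.0 ± 10.8 CPM in HPC. Its partner Cybb, named after its values had been seen, averaged 282 ± 30.1, 227 ± 19.1 and 129 ± 32.4 CPM, and both were called higher in LP. Epx, the eosinophil peroxidase, averaged 2.46 ± 0.281, 5.52 ± 1.05 and 32.0 ± 13.9 CPM, and Tbxas1, thromboxane synthase, 6.12 ± 0.497, 6.19 ± 0.951 and 19.9 ± 3.30 CPM in median LP, early LP and HPC. Both were called lower in LP, so Mpo and Epx, both heme peroxidases, went in opposite directions.

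**Figure D4:**
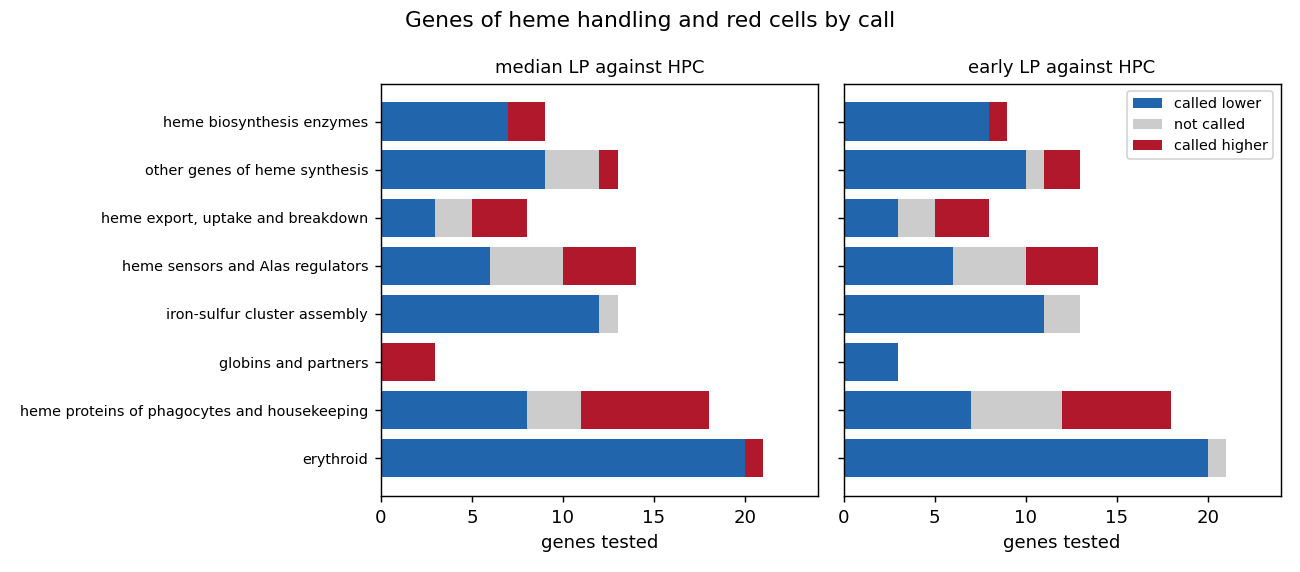
Number of tested genes (horizontal axis) in each list of heme and red cell genes by their edgeR call against HPC, in median LP (left) and early LP (right); red is higher, grey is not called and blue is lower. Of 21 erythroid genes 20 were lower in both, and the 3 globin genes were higher in median LP and lower in early LP.

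Markers of other cells that a sort of bone marrow could hold were counted in the same way. The counts are to be read against the shares over all genes tested. These were 36.0% higher and 37.7% lower in median LP, and 35.3% higher and 37.9% lower in early LP. Of 9 megakaryocyte genes 7 were called lower at each phase and the others were not called, with summed levels of 12.3 to 16.4 CPM in median LP, 15.8 to 18.1 CPM in early LP and 157 to 195 CPM in HPC. Of 9 basophil and mast cell genes 6 were lower in median LP and 7 in early LP, with 1 higher at each phase. Of 7 dendritic cell genes tested 6 were lower and 1 higher in median LP, and 7 lower in early LP. Promyelocyte granule genes were higher in 6 of 7 at each phase, and 5 of 8 monocyte genes were higher in median LP and 4 in early LP, with 2 lower at each. Of the B cell markers 2 were tested, with 1 higher and 1 lower in median LP and 1 lower in early LP. The T and NK cell list had 3 tested genes, 1 higher and 2 lower in median LP and 1 lower in early LP. The part of these differences in the levels of heme genes was not tested.

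The genes whose pattern over the 9 libraries was most like that of each member were ranked among 9981 genes. The measure was the root-mean-square difference of gene-centred log2(CPM + 0.5). Closest to Alas1 were Ncoa4 (difference 0.0638), the receptor that delivers ferritin to autophagy, Pgd (0.067), of the pentose phosphate pathway, and Dhdds (0.0718). Ncoa4 averaged 542 CPM in median LP, 577 CPM in early LP and 309 CPM in HPC. The nearest to Alas2 were Csf1 (0.844), Hba-a1 (0.89) and Cd93 (0.971). Early LP levels of Alas2, 0.154 to 0.218 CPM, lie below the added 0.5, which shrinks its changes. Its differences and the order of its nearest genes may therefore depend on that addition. Alad was nearest to Blvrb (0.101), Emc9 (0.115) and Minpp1 (0.117).

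Uros, Urod, Cpox, Ppox, Fech and Slc25a38 had closer neighbours than Alad and Alas2. For Uros these were Carm1 (0.0648), St3gal3 (0.0673) and Hdac7 (0.0745), for Urod Ngfrap1 (0.0558), Gstp1 (0.0652) and Prcp (0.074), and for Cpox Ipo4 (0.0602), Mthfd1 (0.0747) and Extl3 (0.0867). Ppox was nearest to Sash3 (0.0427), Relt (0.0438) and Zfp553 (0.0495), Fech to Rapgef1 (0.0294), Dnaja3 (0.0415) and Pabpn1 (0.042), and Slc25a38 to Pola2 (0.0366), Prpf19 (0.039) and Pomt1 (0.0415). These differences did not simply follow the size of the change against HPC. Alas1 and Fech had log2 changes of 0.82 and -0.84 in median LP, with nearest genes at 0.0638 and 0.0294. No member was among the 3 nearest genes of another member.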

How the data were processed

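RNA of 9 libraries of sorted bone marrow cells was sequenced, and the deposited table gives, per the file headers, FPKM and estimated counts per RefSeq transcript and library. The submitters' processing notes name TopHat2 2.0.6 and mm10, while the sources used here give no quantifier, annotation release or strand setting. The estimated counts deposited by the authors carry a scaling whose target was not tested. Their low values are mostly whole multiples of 1 step per library (0.867 to 1.23), and division by it gave recovered fragments, with 90.3 to 91.6% of low values whole within 0.05. Deposited totals were 21.9 to 25.8 M per library, and 0 columns of per-sample values were left unused. Coordinates are those of the table, counted from 1.

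Transcripts were summed by gene symbol and rounded to whole counts. The quasi-likelihood test of edgeR 4.0.16 (R 4.3.3) was run with TMM scaling and filterByExpr by group, all 9 libraries in 1 fit with 1 coefficient per group. It kept 12837 genes and left out 3700, with a common biological coefficient of variation of 9.81%. Calls are at a Benjamini-Hochberg adjusted p under 0.05 over all genes tested, two-sided. The test was checked on simulated data with known changes. Because the table holds counts, the planned test on log2 FPKM was run as an alternative only. Some genes of the lists are counted but not reported here by name.

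The 9 members, the lists of related genes and the cell markers were chosen with earlier results of these data known. All members are named. From each other list up to 4 tested genes with the smallest adjusted p against HPC were eligible to be named, and, per member, the 3 genes with the most similar pattern among those with at least 5 CPM in the highest group, leaving out predicted genes. Promoter windows are RefSeq's on GRCm38.p6, and exon overlaps are from GENCODE M21. Alternatives were other scalings, no filter, recovered fragments, DESeq2 1.42.0, and limma 3.58.1 on log2(FPKM + 0.1) and log2(FPKM + 1). Further ones were only the groups compared, only the highest transcript of each gene, a replicate block and leaving out each library in turn. A length split as a block was added after the data had been seen.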

Additional observations from a re-analysis of the deposited data

Results flagged for a closer look

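The change of Alas2 against HPC differed between the phases. It was 4.85 higher on the log2 scale in median LP than in early LP, tested as median against early LP with edgeR (SE 0.29, adjusted p = 7.95e-06), with median LP above and early LP below HPC in every library. Alas2 had 429 recovered fragments in median LP, 13 in early LP and 147 in HPC. Globin RNA moved in the same order, with summed levels of the 6 listed globin genes and partners of 198 to 265 CPM in median LP, 3.37 to 6.43 CPM in early LP and 20.3 to 44.4 CPM in HPC. Its part in the Alas2 difference was not tested. Of the other 8 members, none had a called difference between the phases in edgeR. In that fit 0 had an unadjusted p under 0.05, with Urod at 0.0554 and Uros at 0.0576.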

How the results depend on the processing

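The calls of all 9 members against HPC, and that of Alas2 between the phases, kept their direction and their side of the threshold under all 20 alternative fits. The log2 change of Alas2 ranged over 0.94 to 1.77 in median LP and -3.82 to -0.74 in early LP against HPC. Between the phases it ranged over 1.68 to 5.35. It was smallest in size on the log2(FPKM + 1) scale, which understates low genes. The ends at -3.82 and 5.35 came from the fit on the highest transcript only, which rests on the unreliable split of the Alas2 transcripts. Upper quartile scaling moved the median of all genes to -0.116 in median LP and -0.106 in early LP against HPC, and no member's call or direction against HPC changed.

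The number of genes called between the phases, 318, was 558 with DESeq2, 605 with only the groups compared, 550 with the length split as a block, 192 with the replicate block, and 105 to 687 when each library was left out in turn (687 without HPC 3, 105 without early LP 2). Same-numbered libraries correlated at -0.332 to 0.19 in their deviations, against -0.346 to 0.319 for other pairs. With 3 libraries per group these values cannot tell whether the numbers pair the libraries. The replicate block changed no member's call. The cause was not tested. The Alas1 share differed by -0.717 points between the phases on counts in place of FPKM. Changes that were not called turned sign for Ppox between the phases (-0.0028 with upper quartile scaling, -0.0087 and -0.0082 on log2(FPKM + 0.1) and log2(FPKM + 1), -0.0215 without median LP 3, -0.0050 without early LP 1 and -0.0488 without early LP 3) and for Alas1 (0.0037 without median LP 3). Leaving out each library in turn gave -0.0921 to 0.0037 for Alas1 and -0.0488 to 0.0745 for Ppox. Depth limits Alas2 in early LP, which rests on 13 fragments.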
